A study of Homo sapiens with 12 samples.

Results

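The double Musashi knockdown was compared with control shRNA in MIA PaCa-2, a long-established cell line derived from a pancreatic carcinoma. Short hairpin RNAs (shRNAs), which direct the breakdown of a matching mRNA, were carried into the cells by lentiviruses. The virus with the MSI1 shRNA carried a GFP tag and the virus with the MSI2 shRNA a Tomato Red tag. Double knockdown cells were those positive for both colours when sorted 72 hours after infection, and control cells carried a scrambled shRNA. The sources used here do not state the tag or the gate of the control cells. Each group had 3 libraries, so the comparison used 6 of the 12 libraries of the series. The other 6 held cells with the Msi1 or the Msi2 shRNA alone, and they are used below only where they are named. Of 24528 genes in the table, 15021 had enough counts to be tested, and all of these are members of the comparison. Among the 9507 genes left out, 4175 had no count in the 6 libraries. Of the genes tested, 12 reached the count level of the filter in all control libraries and in no other library of the series. In the same way 1 gene reached it in the double knockdown libraries only.

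Musashi-1 and Musashi-2 are closely related RNA-binding proteins. They bind short elements in target mRNAs and raise or lower the translation and the stability of those mRNAs, and they are best known from neural, intestinal and blood stem and progenitor cells. In pancreatic carcinoma both have been linked to tumour growth and treatment resistance. RNA sequencing reads the mRNA level, so a change in translation alone leaves no mark in these data. In bulk samples such as these, fewer cells of a kind and less RNA per cell cannot be told apart.

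The libraries of the 2 groups differed in more than the shRNA. Levels are given below as counts per 1e6 of the scaled library total (CPM, mean ± SD, n = 3), and total estimated counts were 10.95 to 35.04 times 1e6 in control and 39.85 to 56.12 times 1e6 in double knockdown libraries. The double knockdown libraries stood apart on a trend that also ran within groups, with scores of -1.54 to -1.06 against -0.394 to 0.676 in control. Level relative to the mean of all libraries sloped with transcript length, with a log-log slope of -0.146 to -0.0753, against 0.0246 to 0.051 in control, and mitochondrially encoded genes took 5.268 to 6.047% of counts against 6.592 to 7.891%. The 2 groups did not overlap in these 4 measures nor in the slope of level on GC content, and a two-sided exact permutation test gave p = 0.1 for each of the 5, also after adjustment, which is the minimum for 20 splits of 6 libraries. Replicates within a group differed by more than counting noise (chi-square over degrees of freedom 3.83 to 11.2). Nothing says that they were separate cultures, and the p-values then reflect the spread among these samples alone, which may be technical. The cell line's own genes were present: VIM stood at 5850 to 6030 CPM and KRT18 at 1110 to 1710 CPM over the 6 libraries. CDKN2A, which is deleted in this line, did not exceed 0.023 CPM, and the epithelial gene EPCAM did not exceed 0.364 CPM.

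Both targeted mRNAs were lower in the double knockdown. MSI2 stood at 81.2, 80.7 and 86.3 CPM in the control libraries and 11.1, 12.2 and 12 CPM in the double knockdown libraries. MSI1 was far less abundant, at 4.93, 4.53 and 4.13 CPM in the control libraries and 2.01, 1.45 and 1.66 CPM in the double knockdown libraries. Neither gene overlapped between the groups. On the log2 scale the change of MSI2 was -2.81 ± 0.09 (± standard error, adjusted p = 4.94e-14) and that of MSI1 was -1.42 ± 0.15 (adjusted p = 3.71e-07), with p-values from edgeR adjusted over all genes tested. MSI2 was lower than with the Msi2 shRNA alone, which left it at 15 ± 2.4 CPM (difference -0.35 ± 0.09, adjusted p = 0.0041). MSI1 stood at 1.84 ± 0.19 CPM in the Msi1 knockdown, and its difference from the double knockdown did not pass (-0.09 ± 0.16, adjusted p = 0.651). MSI2 was also lower with the Msi1 shRNA alone than in control, at 54 ± 2.3 CPM (log2 -0.61 ± 0.08, adjusted p = 6.82e-06). MSI1 was higher with the Msi2 shRNA alone than in control, at 6.14 ± 0.82 CPM (log2 0.41 ± 0.13, adjusted p = 0.0244).

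A set of genes tied to Musashi function was followed by name. MET, the receptor of hepatocyte growth factor, stood at 41.7, 40.2 and 42.5 CPM in the control libraries and 23.6, 24.2 and 28.6 CPM in the double knockdown libraries. Its levels did not overlap between the groups, and it fell (log2 -0.70 ± 0.07, adjusted p = 2.58e-07). HMGA2, an architectural chromatin protein, lay under 2 CPM, at 0.841, 1.35 and 0.719 CPM in the control libraries and 0.508, 0.806 and 0.57 CPM in the double knockdown libraries. It passed at -0.70 ± 0.28 (adjusted p = 0.0437), but not without control replicate 2 (0.359), double knockdown replicate 1 (0.167) or double knockdown replicate 3 (0.0935), nor with the library trend in the model (0.734). It also did not pass with DESeq2 (0.0817), with counts thinned to the smallest library (0.146) or with a correction for transcript length (0.0769). NUMB, a classical Musashi target that restrains Notch signalling, was listed at 0 in all 12 libraries and could not be tested. A 0 in this table can be a failed estimate, and it does not show that the gene was not expressed. In the wider list of Musashi-linked genes, 5 of 19 measured genes were higher and 7 lower (4 without double knockdown replicate 1), where 26.6% of all genes tested were called higher and 25.3% lower. MYC, the growth-promoting transcription factor, rose from 236 ± 0.42 to 339 ± 10.1 CPM (log2 0.52 ± 0.06). IKZF2, a zinc finger factor of the Ikaros family, fell from 16 ± 0.35 to 9.2 ± 0.52 CPM (log2 -0.81 ± 0.08).

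**Figure D1:**
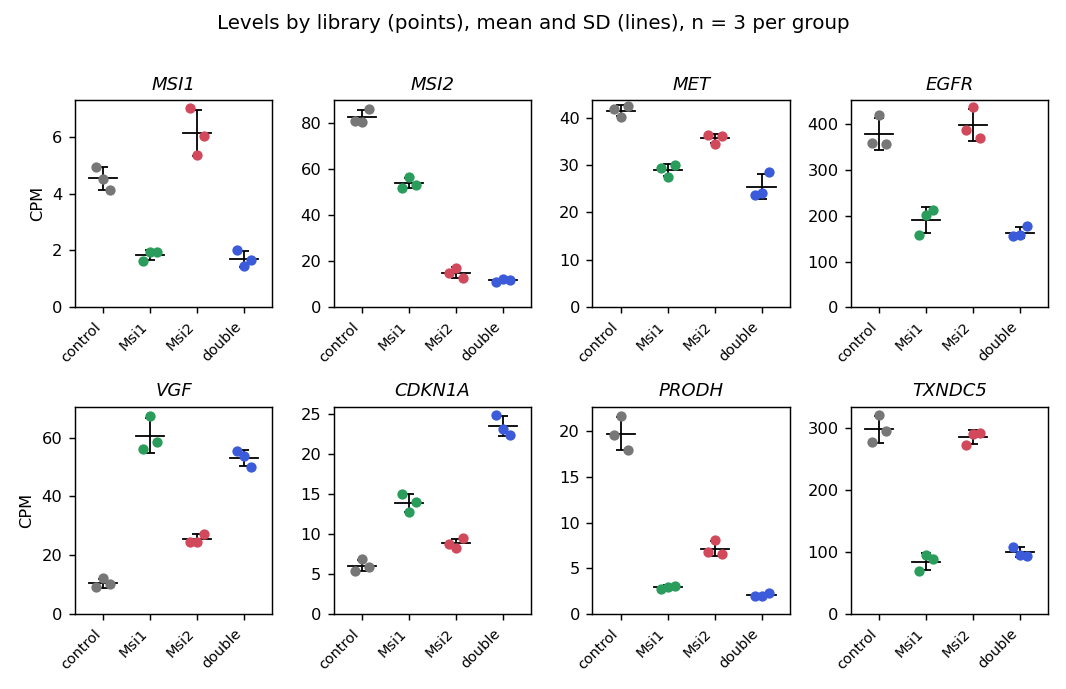
Level in CPM (vertical axis from 0) of 8 named genes in each of the 12 libraries, in 4 groups of 3, with points for libraries and bars for the mean ± SD. MSI1 and MSI2 are low in the double knockdown, and its libraries lie apart from the control libraries for every gene shown.

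In all, 51.9% of genes tested passed the test, mostly by small amounts. Of these, 3990 genes were called higher (26.6% of 15021) and 3806 lower (25.3%), and 8612 genes (57.3%) had an unadjusted p below 0.05. Of the genes called, 3167 higher and 2326 lower ones moved by less than 1.5-fold. A change of 2-fold or more was called for 219 genes higher (1.46%) and 501 lower (3.34%). Among those, 77 higher and 84 lower genes reached 10 CPM in the group with more. The excess of 2-fold falls lay among scarce transcripts, with 235 falls and 63 rises under 1 CPM. The levels of the 2 groups did not overlap for 59.6% of all genes tested, with the double knockdown above in 30.8% and below in 28.9%. With the library trend in the model 5830 genes were called and 244 fell 2-fold or more. The length slope of the libraries moved with the calls. Among genes with transcripts of 64 to 2280 bases, the shortest of 4 equal groups, 36% were higher and 13.9% lower, and among those of 5272 to 109224 bases 16.3% were higher and 36.6% lower. List counts against control are therefore given below also with a correction for transcript length or with the library trend in the model. This is done where a count changes by more than 1.5 times. Over all genes 3036 were called higher and 2794 lower with the trend, and 2987 and 3150 with counts thinned to the smallest library. List counts against a single knockdown are from the main fit alone. With the trend, genes called fell from 8419 to 718 against the Msi1 and from 6792 to 2697 against the Msi2 knockdown.

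**Figure D2:**
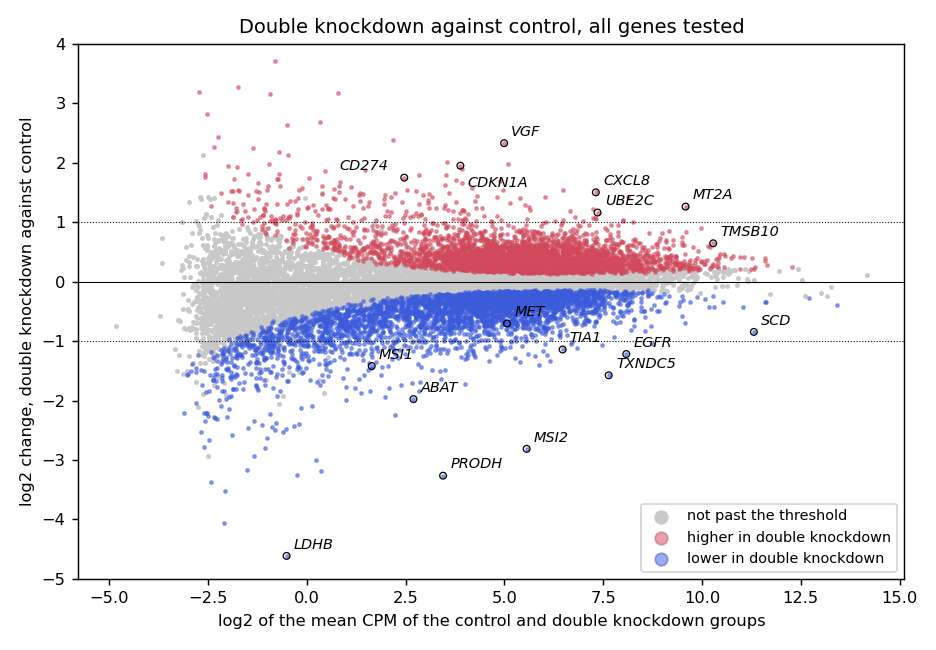
Log2 change of the double knockdown against control (vertical axis) by log2 of the mean CPM of the 2 groups (horizontal axis), 1 point per gene tested, with called genes coloured, some named genes labelled and dotted lines at 2-fold. Of the 7796 called genes 219 lie at or above and 501 at or below the dotted lines, and HIST2H2AA4, with 0 counts in control, lies above the axis.

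The largest rises among genes reaching 10 CPM were in secreted factors, signalling regulators and a cell cycle inhibitor. VGF, the precursor of secreted neuropeptides, stood at 9.14, 12.2 and 10.3 CPM in the control libraries and 55.4, 53.7 and 50.1 CPM in the double knockdown libraries. It rose by 2.33 ± 0.10 on the log2 scale (adjusted p = 3.69e-12), and with the Msi1 shRNA alone it reached 60.6 ± 6.0 CPM. DUSP5, a nuclear phosphatase that switches off ERK, stood at 4.09, 5.12 and 4.58 CPM in the control libraries and 19.6, 19.3 and 16.9 CPM in the double knockdown libraries and rose by 2.02 ± 0.12. In both genes every double knockdown library lay above every control library. ADAMTS4, a protease that cuts the proteoglycan aggrecan, rose from 13.9 ± 2.0 to 54.1 ± 1.2 CPM (log2 1.98 ± 0.10). CDKN1A, the cyclin-dependent kinase inhibitor p21, stood at 5.41, 6.86 and 5.93 CPM in the control libraries and 24.9, 23.1 and 22.4 CPM in the double knockdown libraries and rose by 1.95 ± 0.10 (adjusted p = 2.61e-11). Its level in the double knockdown was also above that in each single knockdown, by 0.76 ± 0.09 against Msi1 (adjusted p = 2.52e-06) and 1.41 ± 0.09 against Msi2 (adjusted p = 1.36e-09). IRAK2, a kinase that relays interleukin-1 and Toll-like receptor signals, rose from 6.54 ± 0.48 to 24 ± 1.8 CPM (log2 1.9 ± 0.09).

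The remaining rises of this rank mixed receptors, cytokines and structural genes. STC1, a secreted glycoprotein hormone, rose by 1.8 ± 0.12, and EGR3, an immediate early transcription factor, by 1.79 ± 0.09. CSF3, the granulocyte colony-stimulating factor, rose from 13.7 ± 1.4 to 45 ± 3.9 CPM (log2 1.69 ± 0.08). CDH5, a cadherin of endothelial junctions, rose from 6.42 ± 0.45 to 20.7 ± 1.2 CPM (log2 1.71 ± 0.10), and it was lower in the double than in the Msi1 knockdown, which stood at 30.5 ± 3.9 CPM (difference -0.55 ± 0.08, adjusted p = 2.97e-05). GPR3, a receptor that signals through cyclic AMP without a ligand, rose by 1.66 ± 0.08. CARD16, a protein made of a caspase recruitment domain, rose by 1.62 ± 0.10, and since it resembles part of caspase-1 the split of shared reads is uncertain. NES, the intermediate filament nestin of progenitor cells, rose from 8.88 ± 1.4 to 27.2 ± 1.4 CPM (log2 1.57 ± 0.09). Its mean was 27.4 ± 1.4 CPM and 25.7 ± 1.4 CPM in the Msi1 and Msi2 knockdowns, and neither difference from the double knockdown passed (-0.01 ± 0.08, adjusted p = 0.898, and 0.08 ± 0.08, adjusted p = 0.435).

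The largest falls were led by enzymes of amino acid breakdown and by MSI2 itself. PRODH, the first enzyme of proline breakdown, stood at 19.6, 21.6 and 18 CPM in the control libraries and 1.98, 1.98 and 2.28 CPM in the double knockdown libraries. It fell (log2 -3.27 ± 0.11, adjusted p = 1.07e-13), and it was lower than in both single knockdowns, which stood at 2.96 ± 0.18 CPM with Msi1 and 7.16 ± 0.84 CPM with Msi2 (differences -0.51 ± 0.13 and -1.79 ± 0.11). PRODH has a pseudogene copy, so the split of shared reads is uncertain. ABAT, the transaminase that breaks down the neurotransmitter GABA, stood at 13.4, 8.08 and 9.44 CPM in the control libraries and 2.5, 2.9 and 2.59 CPM in the double knockdown libraries and fell (log2 -1.98 ± 0.15). C7orf60, known as the S-adenosylmethionine sensor SAMTOR, fell (log2 -1.85 ± 0.12), and TP53INP1, a p53-induced gene, (log2 -1.71 ± 0.10). TXNDC5, which helps secreted proteins form disulfide bonds, had the highest control level of the 12 genes of this rank. It stood at 278, 322 and 295 CPM in the control libraries and 109, 96.3 and 94.6 CPM in the double knockdown libraries and fell (log2 -1.58 ± 0.09). It stood at 84.7 ± 14 CPM with the Msi1 and 286 ± 11 CPM with the Msi2 shRNA alone, and only the first of these differences from control passed (-1.82 ± 0.10, adjusted p = 6.51e-11, and -0.06 ± 0.09, adjusted p = 0.667).

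The other falls of this rank were in transporters, trafficking factors and zinc finger genes. SLC44A5, a choline transporter-like protein, fell from 15.8 ± 1.4 to 5.12 ± 0.80 CPM (log2 -1.64 ± 0.17). SYTL1, a Rab27 effector of vesicle trafficking, fell from 16.6 ± 3.5 to 6.08 ± 0.72 CPM (log2 -1.49 ± 0.12). ZMAT1 and ZNF577, 2 zinc finger genes, fell (log2 -1.5 ± 0.14 and -1.49 ± 0.12). NXPE3 fell (log2 -1.69 ± 0.11) and FAXDC2, of the fatty acid hydroxylase family, (log2 -1.44 ± 0.11). In all of these genes the highest double knockdown library lay below the lowest control library, which the rule for naming them required.

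The 8 most abundant genes changed by 1.5-fold or more included enzymes, translation factors and cytoskeletal genes. SCD, the desaturase that makes monounsaturated fatty acids, stood at 3163, 3411 and 3222 CPM in the control libraries and 1755, 1752 and 1944 CPM in the double knockdown libraries and fell (log2 -0.85 ± 0.09). MT2A, a metal-binding metallothionein, stood at 458, 377 and 519 CPM in the control libraries and 1144, 1097 and 1003 CPM in the double knockdown libraries and rose by 1.26 ± 0.10. The paralogous helicases EIF4A1 and EIF4A2, subunits of the cap-binding complex of translation initiation, went opposite ways. EIF4A1 rose from 938 ± 18 to 1413 ± 71 CPM (log2 0.59 ± 0.08), and EIF4A2 fell from 931 ± 23 to 576 ± 19 CPM (log2 -0.69 ± 0.06). The actin-binding thymosin TMSB10 rose by 0.65 ± 0.09, the tubulin TUBA1B by 0.61 ± 0.08, the surface protein TM4SF1 by 0.91 ± 0.08 and the chromatin protein HMGA1 by 0.84 ± 0.08. At the other end, 4 genes had at most 5 counts in every control library and at least 20 in every double knockdown library. The reverse held for 0 genes. The cut-offs were raw counts, and each control library held fewer counts in total than each double knockdown library. The reverse was therefore harder to meet, and the 4 and 0 cannot be compared. LDHB, with 40, 46 and 16 counts in control and 6, 1 and 0 in double knockdown libraries, missed the reverse cut-offs. Of the 4 genes, SERPINB2, an inhibitor of plasminogen activators, had 2, 5 and 1 counts in control and 59, 42 and 29 in double knockdown libraries. The noncoding RNA LINC00659 had 2, 3 and 1 against 62, 52 and 31 counts, and LINC00273 had 3, 5 and 2 against 29, 31 and 25. HIST2H2AA4 had 0 counts in every control library and 93, 75 and 62 in double knockdown, while its near-identical copy HIST2H2AA3 had 95, 61 and 26 against 27, 0 and 8, so the split between the copies is uncertain.

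Genes of the NF-kB response formed the group with the largest median rise among those with inflammatory roles. NF-kB factors are held in the cytoplasm by inhibitors until a cytokine or stress signal releases them, and they then switch on cytokines, survival genes and their own inhibitors. Their known sites begin with a run of G and end with a run of C, and the promoters of 3 members are shown because they hold such letters. The sequences are the 250 bases before the start of each gene from RefSeq (GRCh38.p14, plus strand), with matches to GGG, 2 bases of any kind and TTTCC, or to its reverse complement, in capitals.
CXCL1, chr4:73869143-73869392: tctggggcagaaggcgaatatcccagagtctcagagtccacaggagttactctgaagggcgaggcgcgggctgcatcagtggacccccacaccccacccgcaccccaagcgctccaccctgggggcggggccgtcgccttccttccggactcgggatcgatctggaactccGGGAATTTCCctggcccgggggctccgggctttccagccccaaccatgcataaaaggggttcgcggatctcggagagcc
TNFAIP3, chr6:137867009-137867258: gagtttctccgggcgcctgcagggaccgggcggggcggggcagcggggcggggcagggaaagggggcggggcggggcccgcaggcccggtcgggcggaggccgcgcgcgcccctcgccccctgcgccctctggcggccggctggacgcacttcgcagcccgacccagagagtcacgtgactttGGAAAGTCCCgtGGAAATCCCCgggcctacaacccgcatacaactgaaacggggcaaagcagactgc
NFKB2, chr10:102394328-102394577: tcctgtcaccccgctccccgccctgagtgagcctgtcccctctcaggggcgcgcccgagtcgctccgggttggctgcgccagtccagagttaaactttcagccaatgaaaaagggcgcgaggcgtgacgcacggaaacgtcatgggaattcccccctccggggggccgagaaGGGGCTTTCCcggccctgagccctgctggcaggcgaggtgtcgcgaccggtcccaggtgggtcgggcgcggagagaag

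These letters were found before 11 of the 21 measured members that have a window (52.4%) and before 309 of the 11874 genes tested that have one (2.60%). Among all genes called higher the share was 3.25%, and among those called lower 2.31%. The spelling was chosen among several after their matches were seen, the window table is not complete, and a match is a description of the letters, not of binding.

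Of 25 measured genes of the list, 21 rose, 1 fell and 3 did not pass, with a median log2 change of 0.728 against -0.015 over all genes. The median was 0.677 with the length correction and 0.633 with the library trend in the model. CXCL8, the neutrophil attractant interleukin-8, stood at 73.6, 86.7 and 89.2 CPM in the control libraries and 233, 249.7 and 221 CPM in the double knockdown libraries and rose by 1.5 ± 0.08 (adjusted p = 4.08e-11). CXCL1, of the same chemokine family, stood at 52, 55.4 and 46.8 CPM in the control libraries and 108, 106 and 99 CPM in the double knockdown libraries and rose by 1.01 ± 0.07. In both genes all double knockdown libraries lay above all control libraries. Inhibitors of the pathway rose as well. TNFAIP3, the ubiquitin-editing enzyme A20, rose from 12.5 ± 0.43 to 23 ± 1.5 CPM (log2 0.89 ± 0.08), and NFKBIA, which holds NF-kB in the cytoplasm, from 114 ± 5.8 to 188 ± 11 CPM (log2 0.72 ± 0.07). The subunits NFKB2 and RELB of the alternative arm rose by 0.66 ± 0.06 and 0.81 ± 0.11, while RELA, the main activating subunit, rose by 0.22 ± 0.06. TRAF1, an adaptor of tumour necrosis factor receptors, was the 1 member that fell (-0.37 ± 0.11), and it did not pass with the library trend in the model (adjusted p = 0.825). NFKBIA, NFKB2, RELB, RELA and TRAF1 were named after their values were seen. The list's median was 0.612 with the Msi1 shRNA and 0.451 with the Msi2 shRNA alone, against the same control libraries. Tested directly in the main fit alone, 13 of 25 members were higher than in the Msi2 knockdown and 4 lower. Over all genes 22.7% and 22.5% were called. Against the Msi1 knockdown 9 were higher and 7 lower, shares near the 29.9% and 26.2% of all genes.

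**Figure D3:**
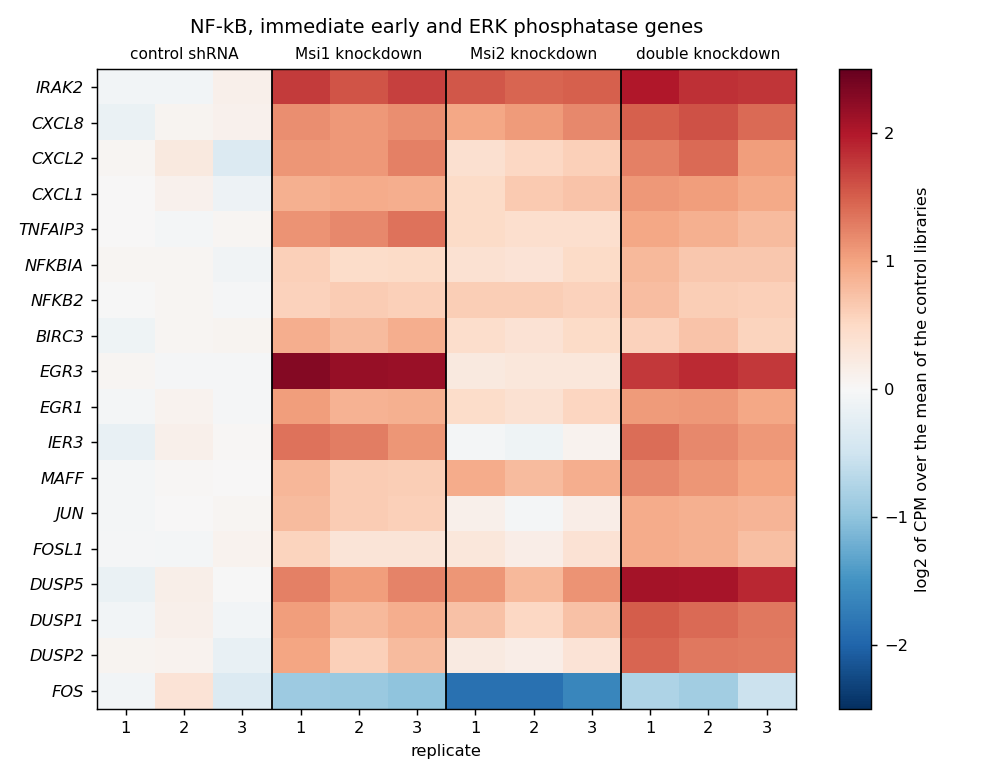
Log2 of CPM over the control mean (colour) of 18 NF-kB, immediate early and ERK phosphatase genes (rows) in the 12 libraries (columns). In the double knockdown columns 17 genes are above control, FOS is below it, and EGR3 and IER3 are high with the Msi1 and nearer control with the Msi2 shRNA alone.

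Interferon-stimulated genes moved in both directions, as did all genes tested, with 26.6% higher and 25.3% lower. The shares of the list were 32.4% and 20.6%. Of 34 measured, 11 rose, 7 fell (3 to 4 without either control replicate 1 or double knockdown replicate 2, 4 with the length correction) and 16 did not pass. ISG15, a ubiquitin-like modifier, rose from 12 ± 0.99 to 21 ± 1.8 CPM (log2 0.79 ± 0.10), and the antiviral gene RSAD2 from 5.53 ± 0.048 to 9.84 ± 0.47 CPM (log2 0.83 ± 0.11). STAT2, a subunit of the factor that drives these genes, fell from 54.7 ± 4.6 to 37.1 ± 1.5 CPM (log2 -0.57 ± 0.07). Among genes of antigen presentation and checkpoint ligands, 13 of 25 rose and 3 fell. CD274, the checkpoint ligand PD-L1, stood at 2.33, 2.5 and 2.97 CPM in the control libraries and 7.86, 9.22 and 8.27 CPM in the double knockdown libraries and rose by 1.75 ± 0.13 (adjusted p = 3.19e-09). It was lower in the double than in the Msi1 knockdown, where it stood at 13 ± 1.6 CPM (difference -0.62 ± 0.10, adjusted p = 4.94e-05). PVRL2, a ligand of lymphocyte receptors, rose from 66.6 ± 6.1 to 110.3 ± 3.3 CPM (log2 0.73 ± 0.08), and ULBP2, a stress ligand of natural killer cells, by 1.05 ± 0.11. ERAP1, which trims peptides for presentation, fell from 38.5 ± 2.0 to 24.7 ± 1.4 CPM (log2 -0.65 ± 0.09).

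Immediate early genes, which are switched on within minutes of growth factor or stress signals, rose almost throughout. Of 25 measured, 22 rose and 1 fell, with a median of 0.546 (0.388 with the library trend in the model, where 20 were higher). EGR1 stood at 56.3, 61.8 and 57.1 CPM in the control libraries and 122, 124 and 114 CPM in the double knockdown libraries and rose by 1.04 ± 0.07. JUN, a subunit of the AP-1 factor, stood at 72, 75.1 and 77.4 CPM in the control libraries and 143, 138 and 135 CPM in the double knockdown libraries and rose by 0.89 ± 0.07. FOS, its partner, went the other way, at 9.67, 12.8 and 8.09 CPM in the control libraries and 5.98, 5.55 and 7.08 CPM in the double knockdown libraries (-0.76 ± 0.13, adjusted p = 7.85e-05). MAFF, a small relative of these factors, rose from 17.7 ± 0.48 to 38 ± 2.8 CPM (log2 1.1 ± 0.08).

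Outputs and brakes of the MAP kinase cascade moved in both directions. Of 22 measured genes 12 rose and 3 fell. The phosphatases that end ERK signalling were among the rises: besides DUSP5, DUSP1 rose from 22.9 ± 1.9 to 61.5 ± 3.8 CPM (log2 1.42 ± 0.08) and DUSP2 from 4.7 ± 0.49 to 12 ± 0.74 CPM (log2 1.32 ± 0.11). IER3, an early survival gene, rose by 1.24 ± 0.10. The 3 genes that fell were the receptor-level brakes SPRY1 (-0.57 ± 0.06), SPRY2 (-0.39 ± 0.06) and SPRED1 (-0.52 ± 0.06), named after their values were seen.

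In the EGF receptor family the receptor EGFR and the ligand BTC fell, and the ligands AREG and EREG rose. EGFR stood at 359.6, 420.1 and 357 CPM in the control libraries and 155, 157 and 177 CPM in the double knockdown libraries and fell (log2 -1.22 ± 0.10, adjusted p = 2.03e-08). AREG rose from 53 ± 5.0 to 94 ± 2.2 CPM (log2 0.82 ± 0.07) and EREG from 413 ± 19 to 744 ± 37 CPM (log2 0.85 ± 0.08). BTC, a further ligand, fell from 14.5 ± 1.1 to 8.75 ± 0.48 CPM (log2 -0.74 ± 0.09). Over the list, 4 of 12 measured genes rose and 5 fell. With the Msi1 shRNA alone EGFR stood at 191 ± 28 CPM and with the Msi2 shRNA alone at 399 ± 35 CPM, and the double knockdown was lower than the Msi2 knockdown (-1.29 ± 0.10, adjusted p = 3.82e-08). Its difference from the Msi1 knockdown did not pass (-0.23 ± 0.10, adjusted p = 0.0567). Receptor tyrosine kinases, MET among them, were mixed, with 8 of 26 higher (5 without double knockdown replicate 1) and 9 lower (4 with the library trend in the model). Their shares were 30.8% and 34.6%, where 26.6% of all genes tested were called higher and 25.3% lower. The WNT co-receptor PTK7 fell from 109.9 ± 9.7 to 60.1 ± 3.4 CPM (log2 -0.87 ± 0.09) and so did the insulin receptor INSR (log2 -0.58 ± 0.09), while FGFR4 rose by 0.76 ± 0.09. Of the PI3K and AKT pathway 11 of 26 fell and 7 rose (3 to 4 without either control replicate 2 or double knockdown replicate 1). Its falls were led by PIK3R3, a regulatory subunit (-0.90 ± 0.08), PIK3CB, a catalytic subunit (-0.64 ± 0.07), and INPP4B, a phosphatase that opposes them (-0.56 ± 0.07). The regulatory subunit PIK3R2 rose by 0.61 ± 0.08.

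Cell cycle genes of the later phases rose together with the inhibitor CDKN1A. Of 40 genes of G2 and mitosis 32 rose and 0 fell, with a median of 0.362. With the library trend in the model the median was 0.255, with 26 higher and 1 lower. UBE2C, the conjugating enzyme of the anaphase-promoting complex, stood at 99.3, 98.5 and 106 CPM in the control libraries and 238, 229.7 and 211 CPM in the double knockdown libraries and rose by 1.16 ± 0.09. CDC20, the activator of that complex, rose from 136 ± 12 to 248 ± 16 CPM (log2 0.87 ± 0.08), the kinesin KIF20A by 0.71 ± 0.06 and the spindle midzone protein PRC1 by 0.70 ± 0.06. The same list had a median of -0.0973 with the Msi1 and 0.162 with the Msi2 shRNA alone, against the same controls. In the direct comparisons, from the main fit alone, 38 of 40 members were higher in the double than in the Msi1 knockdown. Against the Msi2 knockdown 32 were higher. Over all genes 29.9% and 22.7% were called higher in these comparisons. Of 40 genes of DNA replication 27 rose and 1 fell (2 with the length correction, 0 without any 1 of control replicate 1, control replicate 3, double knockdown replicate 2 or double knockdown replicate 3), and with the library trend in the model 16 rose and 3 fell. RRM2, a subunit of the enzyme that makes deoxynucleotides, rose from 169 ± 15 to 344 ± 15 CPM (log2 1.03 ± 0.08), the helicase subunit MCM6 by 0.67 ± 0.07 and the licensing factor CDT1 by 0.59 ± 0.08.

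Regulators of G1 were mixed, with 8 of 23 higher and 6 lower (1 to 2 without any 1 of control replicate 1, control replicate 3 or double knockdown replicate 1). Their shares, 34.8% and 26.1%, lay near the 26.6% higher and 25.3% lower of all genes tested. SKP2, which marks cell cycle inhibitors for degradation, rose from 49.1 ± 3.2 to 82.3 ± 4.2 CPM (log2 0.75 ± 0.07), CCND3, a D-type cyclin, by 0.74 ± 0.09 and E2F1 by 0.52 ± 0.06. Genes known as p53 targets were split as well, with 10 of 26 higher (5 with counts thinned to the smallest library) and 8 lower, shares of 38.5% and 30.8%. GADD45A, a stress sensor, rose from 31.8 ± 2.8 to 62 ± 5.2 CPM (log2 0.96 ± 0.12), as did CDKN1A, while BTG2, an inhibitor of proliferation, fell from 45.4 ± 5.2 to 29.1 ± 1.6 CPM (log2 -0.65 ± 0.08). Of apoptosis regulators 17 of 31 rose and 5 fell, and the rises held genes that promote and genes that restrain cell death. BAK1, which opens the outer mitochondrial membrane, rose from 41.5 ± 2.9 to 79.4 ± 4.0 CPM (log2 0.94 ± 0.07), and MCL1, which blocks it, rose from 368 ± 11 to 610.5 ± 26 CPM (log2 0.73 ± 0.07). BIRC3, an inhibitor of apoptosis induced by NF-kB, rose by 0.63 ± 0.07. Of DNA repair genes 12 of 32 rose (5 with the library trend in the model) and 7 fell. The checkpoint kinases CHEK1 and CHEK2 rose by 0.47 ± 0.07 and 0.49 ± 0.06, and the recombination factor RAD52 fell (log2 -0.98 ± 0.10).

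**Figure D4:**
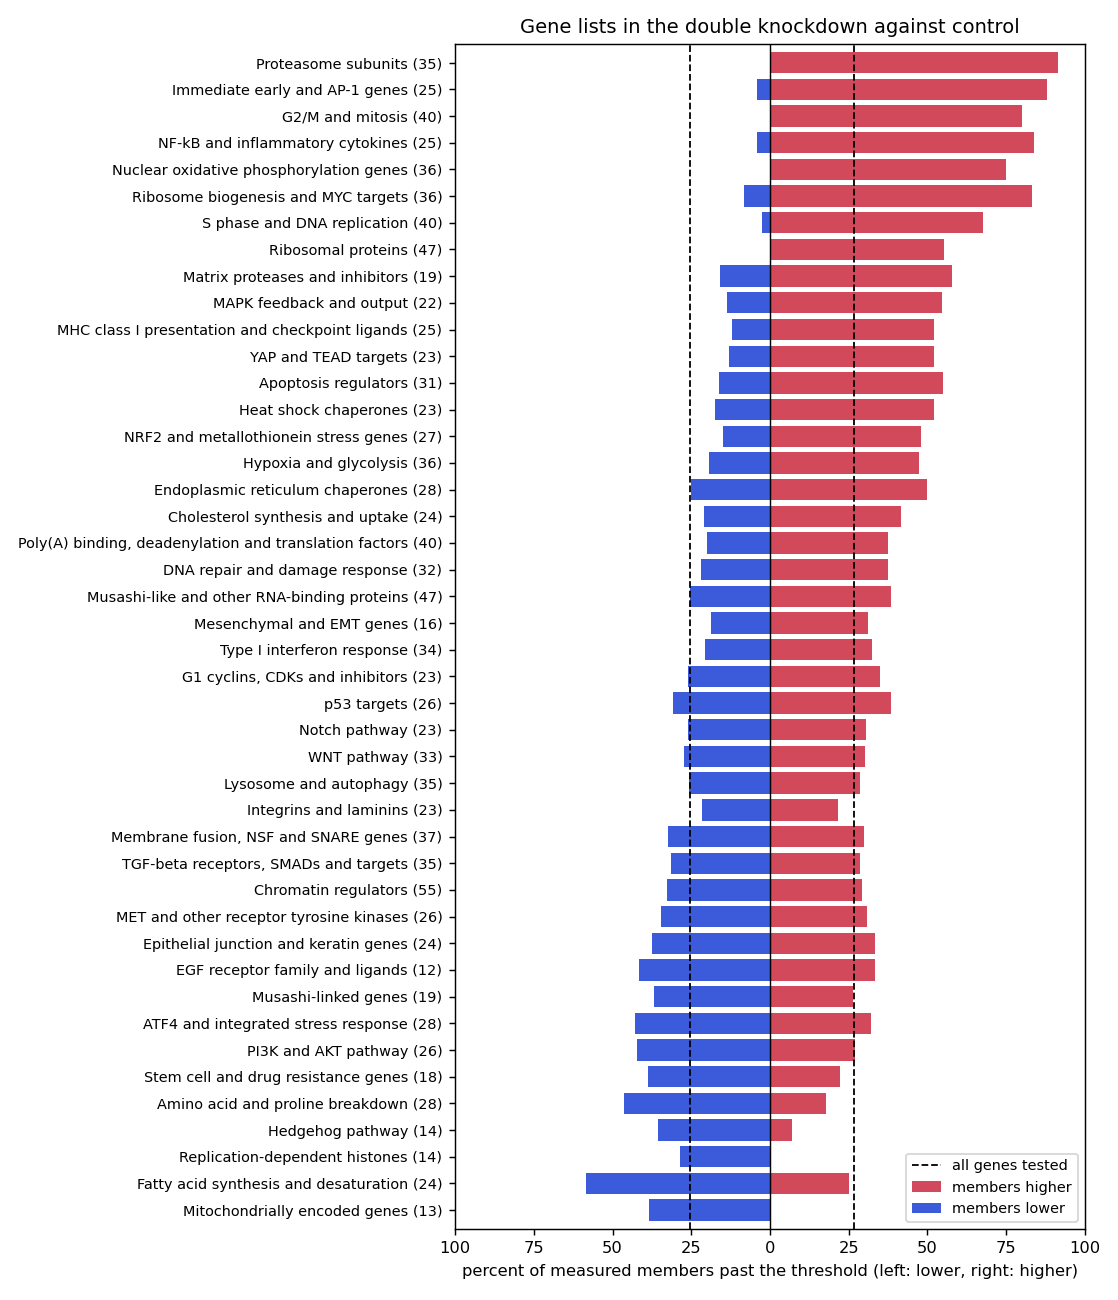
Percent of measured members of each list called higher (right) and lower (left) in the double knockdown against control. The dashed lines give the shares over all genes tested, 26.6% higher and 25.3% lower. Lists are ordered by the difference of the shares, from proteasome subunits at the top to mitochondrially encoded genes at the bottom.

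Genes of the protein production and turnover machinery were higher, by amounts that differed with the correction. Of 35 proteasome subunits 32 rose and 0 fell, with a median of 0.386 (0.217 with the library trend in the model, with 25 higher and 1 lower). PSMB3, a subunit of the core particle, rose from 102 ± 3.2 to 166 ± 14 CPM (log2 0.70 ± 0.08), and PSME3, an activator of the core, from 162 ± 11 to 246 ± 2.4 CPM (log2 0.60 ± 0.07). The medians of the list were 0.0791 and 0.046 with the Msi1 and Msi2 shRNA alone. Tested directly in the main fit alone, 31 subunits were higher in the double than in the Msi1 and 34 than in the Msi2 knockdown. Over all genes 29.9% and 22.7% were called higher. Of 36 genes of ribosome biogenesis and MYC function 30 rose and 3 fell. SRM, the spermidine synthase, rose from 76.4 ± 4.0 to 129.6 ± 10.3 CPM (log2 0.77 ± 0.08), and the pre-ribosome factors BOP1 and TSR1 by 0.68 ± 0.07 and 0.53 ± 0.06. NCL, the abundant nucleolar protein nucleolin, fell from 1445 ± 28 to 1082 ± 5.3 CPM (log2 -0.42 ± 0.08) and was named after its value was seen.

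Ribosomal protein genes, nuclear genes of oxidative phosphorylation and heat shock chaperones had counts that depended on the correction. Over all 15021 genes, those called higher went from 3990 to 3036 with the library trend in the model. Of 47 ribosomal protein genes 26 were called higher (12 to 16 without any 1 of control replicate 2, double knockdown replicate 1 or double knockdown replicate 2) and 0 lower. With the length correction 15 were higher, and with the library trend in the model 3 were higher and 4 lower. RPS15 was the member with the smallest p, at 290.5 ± 6.5 to 418 ± 27 CPM (log2 0.53 ± 0.08). Many ribosomal protein genes have processed pseudogenes, so the split of their reads is uncertain. Of 36 nuclear genes of oxidative phosphorylation 27 were called higher and 0 lower, and with the library trend in the model 9 were higher. COX5A, a subunit of cytochrome oxidase, rose from 77.9 ± 4.1 to 117 ± 4.4 CPM (log2 0.59 ± 0.08). The mitochondrially encoded genes lay on the other side, with 5 of 13 called lower (1 to 3 without any 1 of control replicate 1, control replicate 2, double knockdown replicate 1 or double knockdown replicate 2), 9 with the length correction and 0 with the library trend in the model. Of heat shock chaperones 12 of 23 were called higher (7 without double knockdown replicate 2) and 4 lower (1 without control replicate 1), and with the library trend in the model 4 were higher. HSPA4, a co-chaperone of the HSP70 system, rose from 455 ± 9.8 to 672 ± 13 CPM (log2 0.56 ± 0.07).

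**Figure D5:**
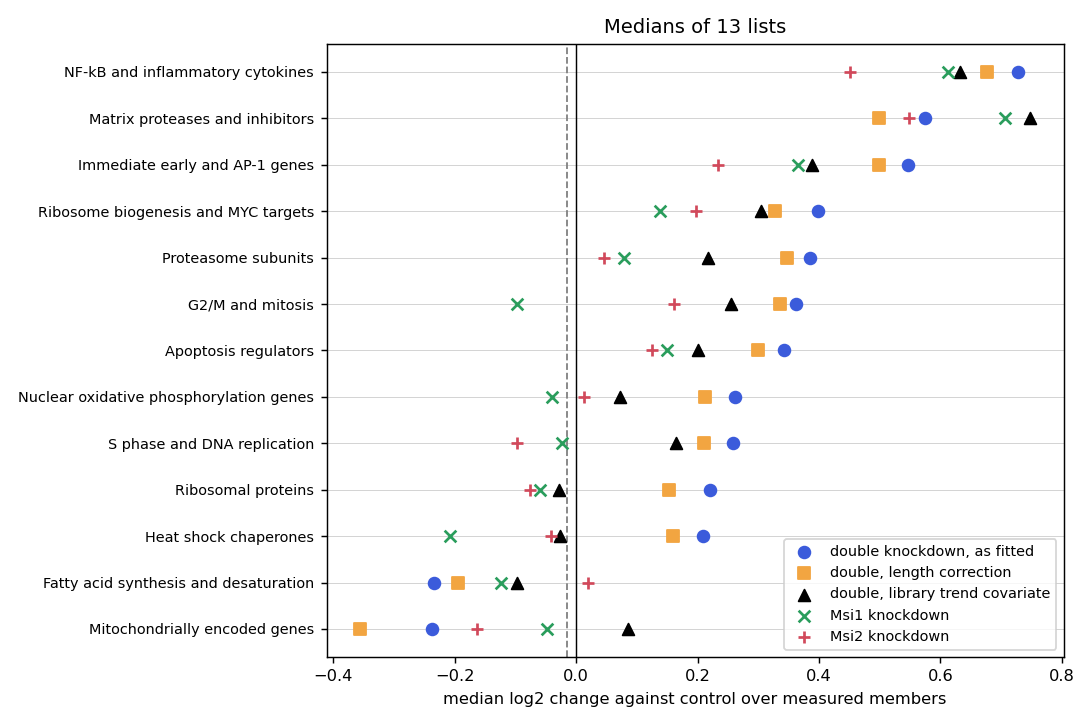
Median log2 change (horizontal axis) of 13 lists in the double knockdown against control as fitted, with the length correction and with the library trend in the model, and in each single knockdown against the same controls. The dashed line is the median over all genes, -0.015. The NF-kB and immediate early medians are positive in all 3 fits of the double knockdown, and those of ribosomal proteins, heat shock chaperones and mitochondrially encoded genes change sign with the trend.

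Metabolic genes moved in separate directions by pathway, where 26.6% of all genes tested were called higher and 25.3% lower. Of 24 genes of fatty acid synthesis and desaturation 14 fell and 6 rose. Besides SCD, ACLY, which makes cytosolic acetyl-CoA, fell from 518 ± 19.8 to 311 ± 8.2 CPM (log2 -0.74 ± 0.06), and so did ACACB, an acetyl-CoA carboxylase (log2 -0.66 ± 0.09). ME1, the malic enzyme that supplies NADPH, rose by 0.58 ± 0.07. Of 24 cholesterol genes 10 rose and 5 fell (3 without either control replicate 2 or double knockdown replicate 1), with LSS, the lanosterol synthase, at -0.57 ± 0.07. Of 28 genes of amino acid breakdown 13 fell and 5 rose (3 with the library trend in the model). Besides PRODH and ABAT, the mitochondrial dehydrogenases ALDH5A1 and ALDH6A1 fell (log2 -0.65 ± 0.06 and -0.73 ± 0.07). ALDH5A1 acts on the product of ABAT in the breakdown of GABA.

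A glucose transporter and enzymes of the upper steps of glycolysis rose. Of 36 genes of hypoxia and glycolysis 17 rose and 7 fell. SLC2A3, the glucose transporter GLUT3, stood at 40.4, 48.6 and 48.9 CPM in the control libraries and 133, 129.8 and 136 CPM in the double knockdown libraries and rose by 1.54 ± 0.09 (adjusted p = 1.04e-10). PFKP, a phosphofructokinase, rose from 143 ± 17 to 275 ± 11 CPM (log2 0.95 ± 0.08), PFKFB3, which makes its activator, by 0.83 ± 0.07, and the hexokinase HK2 by 0.63 ± 0.06. No double knockdown library overlapped a control library in these 4 genes.

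Stress responses gave no single direction. In the ATF4 list 9 of 28 rose and 12 fell (32.1% and 42.9%), where 26.6% of all genes tested were higher and 25.3% lower. CEBPB rose from 11.4 ± 0.47 to 27.1 ± 2.4 CPM (log2 1.24 ± 0.12) and the pseudokinase TRIB3 by 0.84 ± 0.08, while ALDH1L2, a mitochondrial folate enzyme, fell from 25.8 ± 0.70 to 11.3 ± 0.99 CPM (log2 -1.19 ± 0.10) as did NUPR1 (log2 -1.1 ± 0.13). Of endoplasmic reticulum chaperones 14 of 28 rose and 7 fell (2 with the library trend in the model). Against the fall of TXNDC5 stood the oxidase ERO1A, which rose from 113 ± 6.6 to 203 ± 12 CPM (log2 0.84 ± 0.08). SEL1L, a part of the degradation machinery of that compartment, fell from 84.3 ± 8.1 to 47.2 ± 3.0 CPM (log2 -0.84 ± 0.09). Of NRF2 and metallothionein genes 13 of 27 rose (8 with the library trend in the model) and 4 fell (1 without either control replicate 2 or double knockdown replicate 1). AKR1C1, an aldo-keto reductase with near-identical relatives, rose by 1.00 ± 0.07, with the split of shared reads uncertain, and SRXN1, which repairs peroxiredoxins, rose by 0.82 ± 0.10.

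Proteases of the extracellular matrix mostly rose, and integrins of the hemidesmosome fell. Of 19 proteases and inhibitors 11 rose and 3 fell. The matrix protease MMP2 reached the count level of the filter in the control libraries alone, so the filter favoured a fall for it. MMP1, an interstitial collagenase, rose from 15 ± 1.6 to 40.9 ± 0.92 CPM (log2 1.43 ± 0.09), and PLAUR, the urokinase receptor, by 0.83 ± 0.08. Of integrins and laminins 5 of 23 rose (2 to 3 without any 1 of control replicate 1, control replicate 3, double knockdown replicate 1 or double knockdown replicate 3, 10 with the library trend in the model) and 5 fell. These shares, 21.7% each way, stood against 26.6% higher and 25.3% lower over all genes tested. ITGA6 and ITGB4, which pair in hemidesmosomes, fell from 55.2 ± 5.0 to 32.5 ± 1.3 CPM (log2 -0.77 ± 0.08) and from 297 ± 33 to 186 ± 8.8 CPM (log2 -0.67 ± 0.09). The laminin subunit LAMB2 fell (log2 -1.02 ± 0.13), and the collagen-binding ITGA2 rose by 1.5 ± 0.18 at a mean of 2.6 ± 0.22 CPM. Against the Msi1 knockdown, in the main fit alone, 18 of the 23 were lower in the double knockdown and 0 higher. Over all genes 26.2% were called lower. Epithelial and mesenchymal genes were mixed, with 8 higher and 9 lower of 24 and 5 higher and 3 lower (5 without double knockdown replicate 2) of 16. The keratin KRT80 fell from 102 ± 7.4 to 40.5 ± 0.65 CPM (log2 -1.34 ± 0.07), and the tight junction claudin CLDN1 rose from 82.2 ± 7.5 to 158 ± 5.0 CPM (log2 0.94 ± 0.08). SNAI1, a repressor of epithelial genes, rose from 3.21 ± 0.26 to 5.87 ± 0.81 CPM (log2 0.87 ± 0.15).

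Developmental pathways held members that moved in both directions, as did all genes tested, with 26.6% higher and 25.3% lower. The shares of the TGF-beta, Notch and WNT lists below lay near these. Among YAP and TEAD targets 12 of 23 rose and 3 fell. CYR61, a matricellular target, rose from 161 ± 16 to 312 ± 13 CPM (log2 0.95 ± 0.08) and the kinase NUAK2 by 1.24 ± 0.09. In the TGF-beta list 10 of 35 rose and 11 fell, among them the receptor BMPR1A (-0.74 ± 0.07) and the target ID2 (-1.0 ± 0.10). In the Notch list 7 of 23 rose and 6 fell. The co-activator MAML1 fell from 80.6 ± 6.1 to 48 ± 0.74 CPM (log2 -0.75 ± 0.06), the feedback target NRARP rose by 1.1 ± 0.11, and the NUMB relative NUMBL rose from 30.1 ± 1.7 to 42.1 ± 2.4 CPM (log2 0.47 ± 0.07). In the WNT list 10 of 33 rose (6 with thinned counts) and 9 fell, with the transcription factor TCF7L2 at -0.55 ± 0.07 and the secreted antagonist DKK1 at 0.45 ± 0.07. In the Hedgehog list 5 of 14 fell (3 with the library trend in the model) and 1 rose (0 without any 1 of control replicate 1, control replicate 3, double knockdown replicate 1 or double knockdown replicate 3). The receptor PTCH1 fell from 11.6 ± 0.71 to 6.84 ± 0.66 CPM (log2 -0.75 ± 0.12) and the signal transducer SMO from 44.1 ± 2.9 to 32.5 ± 1.7 CPM (log2 -0.44 ± 0.08). Of 8 pancreatic progenitor factors 2 rose (1 without any 1 of control replicate 1, control replicate 3, double knockdown replicate 1, double knockdown replicate 2 or double knockdown replicate 3, 1 with the length correction and 1 with the library trend in the model) and 2 fell (1 without double knockdown replicate 1, 1 with the library trend in the model). Of stem cell and drug resistance genes 4 of 18 rose and 7 fell, with TP63, a p53 relative of basal epithelium, at 192 ± 11 to 119 ± 5.3 CPM (log2 -0.69 ± 0.06).

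Among RNA-binding proteins, the Musashi genes included, 18 of 47 rose (9 with the library trend in the model) and 12 fell. Over all genes 26.6% were higher and 25.3% lower, and with the trend 3036 and 2794 of 15021 genes. HNRNPAB, of the protein family whose RNA-binding domains are closest to those of Musashi, rose from 168 ± 5.5 to 339 ± 19 CPM (log2 1.01 ± 0.07). TIA1, a stress granule protein, fell from 122 ± 11 to 55.5 ± 4.1 CPM (log2 -1.14 ± 0.09). Of poly(A) binding, deadenylation and translation genes 15 of 40 rose (9 with the library trend in the model) and 8 fell. EIF4EBP2, a repressor of the cap-binding factor, fell from 193 ± 25 to 115 ± 1.6 CPM (log2 -0.74 ± 0.08), and the microRNA effectors TNRC6A and AGO1 fell (log2 -0.64 ± 0.07 and -0.55 ± 0.07). Chromatin regulators were mixed, with 16 of 55 higher (29.1%) and 18 lower (32.7%). The histone demethylase KDM6B rose from 22 ± 0.61 to 37.5 ± 1.8 CPM (log2 0.78 ± 0.07), the methyltransferase DOT1L by 0.61 ± 0.06 and the DNA demethylase TET3 by 0.63 ± 0.07. Of 14 replication-dependent histone genes measured, 4 fell (2 without control replicate 1) and 0 rose. These mRNAs mostly lack poly(A) tails, and no member had a mean of 10 CPM in either group. In membrane fusion genes 11 of 37 rose (7 without any 1 of control replicate 2, double knockdown replicate 2 or double knockdown replicate 3, 7 with the library trend in the model) and 12 fell. NSF, the ATPase that takes SNARE complexes apart, fell from 86.5 ± 8.4 to 38.8 ± 2.5 CPM (log2 -1.16 ± 0.08). In the lysosome list 10 of 35 rose (6 without control replicate 2) and 9 fell (5 without either control replicate 2 or double knockdown replicate 2, 5 with the library trend in the model), with the protease CTSL at 98.4 ± 7.3 to 172 ± 5.9 CPM (log2 0.80 ± 0.07).

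Markers of other cell types were summed by list, with the genes that contributed most. Of 9 endothelial markers the summed level was 9.55 to 11.5 CPM in control and 23 to 26.1 CPM in the double knockdown. CDH5 stood at 5.94, 6.5 and 6.83 CPM in control and 22, 20.6 and 19.6 CPM in double knockdown libraries, while KDR did not exceed 0.269 CPM, CLDN5 0.18 CPM and ERG 0.0328 CPM. Of 12 blood cell markers the sum was 17.9 to 20.6 CPM against 48.6 to 53.1 CPM, with the most from the lysosomal protein CD68, which rose from 16 ± 1.2 to 47 ± 2.0 CPM (log2 1.54 ± 0.07). PTPRC, which marks all white blood cells, did not exceed 0.0841 CPM, and CD3E and MS4A1 were at 0 in the 6 libraries. The 12 fibroblast markers summed to 611 to 746 CPM against 557 to 650 CPM. Most of that sum came from the collagens COL1A2 (-0.49 ± 0.09) and COL3A1 (0.37 ± 0.10), with FAP at most at 0.0188 CPM. The 15 pancreatic acinar, ductal and islet markers summed to 19.8 to 22.1 CPM against 17.8 to 23.8 CPM, and the 7 neuronal genes of packaging cells did not exceed 0.591 CPM in sum in any library.

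The double knockdown was then set against each single knockdown, which asks where the pair of shRNAs differed from 1 of them. Against the Msi1 knockdown 4486 genes were higher (29.9%) and 3933 lower (26.2%), and against the Msi2 knockdown 3413 higher (22.7%) and 3379 lower (22.5%). With the library trend in the model these totals dropped from 8419 (56%) to 718 and from 6792 (45.2%) to 2697 genes. The change with both shRNAs differed from the sum of the single changes in 6058 genes (40.3%), above it in 21.3% and below it in 19.1%. Genes called higher in the double knockdown against control had a median log2 change of 0.371, and the same genes had medians of 0.125 with the Msi1 and 0.161 with the Msi2 shRNA alone against the same control libraries. Genes called lower had medians of -0.482, -0.213 and -0.191. In all 3 tests, against control and against each single knockdown, 1738 genes were higher (11.6%) and 1305 lower (8.69%).

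By the rule, 6 genes on each side lay farthest beyond both single knockdowns. DHRS2, a short-chain dehydrogenase, stood at 7.15, 7.13 and 8.63 CPM in control, 5.84, 5.44 and 4.29 CPM in Msi1, 5.45, 4.33 and 4.69 CPM in Msi2 and 12.4, 11.6 and 12 CPM in double knockdown libraries. It was higher than both singles by 1.2 ± 0.11 and 1.33 ± 0.11, and both singles were lower than control (-0.51 ± 0.12 and -0.64 ± 0.12). UBE2S, which extends ubiquitin chains for the anaphase-promoting complex, stood at 96.4 ± 3.4 CPM, 101 ± 9.7 CPM, 116 ± 13 CPM and 204 ± 16 CPM in the same order. CITED4, a transcriptional co-activator, was higher by 0.82 ± 0.10 and 0.91 ± 0.10, CCDC85B by 0.91 ± 0.12 and 1.08 ± 0.12, CTXN1 by 0.89 ± 0.12 and 1.03 ± 0.12, and DUSP5 by 0.83 ± 0.10 and 1.0 ± 0.10. On the lower side SLC44A5 was below the singles (log2 -1.38 ± 0.17 against Msi1 and -1.19 ± 0.17 against Msi2), as were ZNF577 (-1.09 ± 0.12 and -0.96 ± 0.12) and ZMAT1 (-0.95 ± 0.14 and -1.15 ± 0.13). The other 3 genes of this rank share reads with copies or lost their call in other settings. CCDC144A, which has near-identical copies, was below the singles (log2 -1.5 ± 0.34 against Msi1 and -1.38 ± 0.34 against Msi2). It stood at 29.3, 37.7 and 27.5 CPM in control and 10.5, 16.1 and 17.3 CPM in double knockdown libraries (log2 -1.14 ± 0.35, adjusted p = 0.0259). This change against control did not pass without control replicate 2 (0.0918), without double knockdown replicate 1 (0.0747) or with the library trend in the model (0.336). The pseudogene PFN1P2 was below the singles by log2 -1.775 ± 0.35 and -1.245 ± 0.35. Its change against control (-1.2 ± 0.37, adjusted p = 0.0233) did not pass under the same 3 settings (0.102, 0.0628 and 0.174). The pseudogene BMS1P5 was at -1.16 ± 0.27 against control, and at -1.3 ± 0.26 and -1.045 ± 0.25 against the singles.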

How the data were processed

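RNA was taken from sorted cells (200 ng per sample) and sequenced, per the labels' protocols. The deposited table holds estimated counts per gene as whole numbers. Per the submitters' processing notes kallisto 0.42.1, CASAVA 1.4 and the hg19 build were used, with roles, strandedness and further steps not given in the sources used here. All 12 libraries were fitted in 1 model with edgeR 4.0.16 (R 4.3.3; robust quasi-likelihood test, TMM scaling, filterByExpr with a minimum count of 10 by group). The p-values were adjusted by Benjamini-Hochberg over 15021 genes at 0.05, and fold changes are log2 with standard errors. Alternatives used DESeq2 1.42.0, other scaling and filters, thinned counts, a replicate block, a length correction and a library trend covariate. Others used only the compared groups or left out each replicate. The axis of the trend was the first principal component of deviations within groups. Each library was scored on it from its deviation from the mean of all 12 libraries. The scores therefore also hold differences between groups. The scripts were tested on simulated data.

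The members and gene lists were chosen with earlier results of these data known. Named genes are MSI1, MSI2, MET, HMGA2, NUMB and others fixed by name; the 12 largest rises and falls called, at 10 CPM or more and without overlap; the 8 most abundant called genes changed 1.5-fold; genes near the counting floor; the 6 genes each way farthest beyond both single knockdowns; the 8 least additive; and up to 4 members of each list by smallest p. Some genes that this rule takes in are not reported here. Promoter sequences are from RefSeq (GRCh38.p14).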

Additional observations from a re-analysis of the deposited data

Results flagged for a closer look

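The 8 genes below, 4 on each side, were those of at least 10 CPM whose log2 change in the double knockdown lay farthest from the sum of the 2 single knockdowns and passed the interaction term of the edgeR model. All use the same control libraries, and groups of 3 were too small to test single libraries as outliers. By this term 3192 genes were above the sum (21.3%) and 2866 below (19.1%), and with the library trend in the model 592 genes passed in all. The p-values below are from the main fit, without the trend.

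Above the sum, FOS differed by 2.04 ± 0.19 (adjusted p = 8.7e-07), with changes of -0.99 with Msi1, -1.81 with Msi2 and -0.76 with both shRNAs. DHRS2 differed by 1.84 ± 0.16 (adjusted p = 4.51e-07), with changes of -0.51, -0.64 and 0.69 in the same order. H19, an imprinted noncoding RNA, differed by 1.36 ± 0.15 (adjusted p = 4.41e-06), with -1.33, -0.34 and -0.30. ABAT differed by 1.35 ± 0.23 (adjusted p = 0.000216), with -1.74, -1.58 and -1.98.

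Below the sum, CFB, complement factor B, differed by -2.09 ± 0.18 (adjusted p = 5.82e-07), with 1.39, 1.21 and 0.51. CD274 differed by -1.92 ± 0.16 (adjusted p = 4.2e-07), with 2.37, 1.3 and 1.75. MMP14, a membrane-bound matrix protease, differed by -1.87 ± 0.20 (adjusted p = 1.4e-05), with 1.72, 1.14 and 0.99. The pseudogene PFN1P2 differed by -1.82 ± 0.48 (adjusted p = 0.0168), with 0.58, 0.05 and -1.2. With the library trend in the model its change against control was -0.276 and did not pass (adjusted p = 0.174).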

How the results depend on the processing

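The double knockdown differed from control in 7796 genes, in 5830 to 8243 genes under the alternatives that kept all 6 libraries, and in 6477 to 7311 genes with 1 replicate left out. Genes 2-fold higher numbered 79 under the stricter filter, against 219, and genes 2-fold lower 148 under that filter and 244 with the library trend in the model, against 501. With the trend, the double knockdown differed from the Msi1 knockdown in 718 genes (against 8419), from the Msi2 knockdown in 2697 (against 6792), and from the sum of the singles in 592 (against 6058). CCDC144A, lower in the double than in the Msi1 knockdown (log2 difference -1.5), had a log2 difference of 0.0144 with the trend. The trend scores of the control and double knockdown libraries did not overlap. The fit of the compared groups alone cannot give the sum of the singles.

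Between control and double knockdown, deviations of same-numbered replicates had correlations of 0.141, -0.0597 and -0.2, and those of other pairs -0.158 to 0.263. With a replicate block 8175 genes were called, against 7796, so pairing by replicate number is not settled. H19 (-0.30 ± 0.10 against control) lost its call when control replicate 1, control replicate 3 or double knockdown replicate 2 was left out, with adjusted p-values of 0.121, 0.0607 and 0.081. In lists where edgeR called 0 members against control in a direction, 0 reached an unadjusted p below 0.05 and DESeq2 called 0.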

Other observations

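A few transcripts, some of them of embryonic cells, lay near the counting floor and were chosen after their values were seen. LIN28A, an RNA-binding protein of embryonic stem cells, had 61, 52 and 32 counts in control, 47, 30 and 13 in Msi1, 12, 19 and 29 in Msi2 and 15, 12 and 6 in double knockdown libraries. In the same order TDGF1, a co-receptor of the embryo, had 24, 30 and 10, then 16, 19 and 5, then 10, 6 and 7, then 10, 2 and 4 counts. LDHB, a lactate dehydrogenase subunit, had 40, 46 and 16, then 32, 7 and 3, then 0, 2 and 5, then 6, 1 and 0 counts. The low counts and their part in the difference were not tested further.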
